A study of Mus musculus with 9 samples.

Results

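Hmgcs1, Fdps, Fdft1, Sqle, Lss, Dhcr7 and Insig1 were followed across whole mouse retinas as a set of cholesterol genes. These 7 genes were chosen by name, as sterol synthesis enzymes and a regulator of the sterol response, and all 7 were found among the 47729 gene identifiers of the deposited count table. The first 6 encode enzymes and Insig1 encodes a sterol sensor, so uptake itself is described through a separate list of genes. Bulk RNA sequencing was done on 9 libraries, 3 in each of 3 groups.

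The Yap CKO retinas were homozygous for a floxed Yap allele and carried Rax-CreERT2, a tamoxifen-dependent Cre that the series describes as acting in Müller cells, the radial glia of the retina. The control retinas carried the floxed Yap alleles without the Cre. Both groups received 4-hydroxytamoxifen (4-OHT) at postnatal day 10 and were collected at postnatal day 60 on a C57Bl6/J background. The C57 retinas were wild type C57Bl6/J at postnatal day 30, taken by the submitters from an earlier series and re-analysed. One genotype field of the control samples names the conditional knockout without a Cre, and the series' design text was followed for that group. The library names of both P60 groups contain the letters MNU, and no treatment with that name is described in the labels. C57 therefore differs from the P60 groups in age, floxed allele, tamoxifen, source series, depth, the mix of sexes (below) and whatever those letters stand for, and these cannot be told apart. Each P60 library was made from 1 frozen retina. Nothing in the labels says whether the retinas of a group came from different animals, so p-values measure only the spread between these libraries.

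Cholesterol is built from acetyl-CoA by a chain of enzymes that passes through mevalonate, farnesyl diphosphate, squalene and lanosterol. When sterols run low, the SREBP transcription factors are carried by Scap to the Golgi and cleaved, and they then switch on genes of this chain and of lipoprotein uptake. Insig proteins hold Scap back when sterols are plentiful, and the gene for Insig1 is itself a target of the same factors. In the retina, Müller glia are regarded as a main site of cholesterol synthesis, and photoreceptor membranes hold much of the tissue's lipid.

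Promoter sequence is shown first because the 7 genes are known as a set under shared control of SREBP, which works beside the factors NF-Y and Sp1. RefSeq promoter windows (GRCm38.p6) were found for 4 of the 7 genes, Hmgcs1, Lss, Dhcr7 and Insig1. Capitals mark TCACNCCAC, a form of the sterol regulatory element, CCAAT, the NF-Y box, and GGGCGG, the Sp1 box, read on both strands. The lines run 5′ to 3′ on the plus strand, at chr13:119690101-119690350, chr10:76531355-76531587, chr7:143822917-143823144 and chr5:28071162-28071362 in the order given. Each ends at the base before the earlier of the RefSeq and GENCODE starts.
Hmgcs1: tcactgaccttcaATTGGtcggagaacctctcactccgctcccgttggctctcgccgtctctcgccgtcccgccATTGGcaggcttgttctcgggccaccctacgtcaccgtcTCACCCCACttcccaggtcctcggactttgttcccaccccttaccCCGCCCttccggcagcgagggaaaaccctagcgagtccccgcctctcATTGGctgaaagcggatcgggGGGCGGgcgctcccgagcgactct
Lss: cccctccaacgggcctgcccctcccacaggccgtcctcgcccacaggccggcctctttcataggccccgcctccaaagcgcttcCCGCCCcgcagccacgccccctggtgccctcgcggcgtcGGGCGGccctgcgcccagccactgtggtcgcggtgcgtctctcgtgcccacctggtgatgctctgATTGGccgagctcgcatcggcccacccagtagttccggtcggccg
Dhcr7: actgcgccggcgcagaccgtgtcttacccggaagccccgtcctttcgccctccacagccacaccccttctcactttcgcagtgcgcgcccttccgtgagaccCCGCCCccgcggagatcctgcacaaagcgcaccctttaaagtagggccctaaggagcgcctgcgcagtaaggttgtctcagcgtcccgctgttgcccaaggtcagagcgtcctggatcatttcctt
Insig1: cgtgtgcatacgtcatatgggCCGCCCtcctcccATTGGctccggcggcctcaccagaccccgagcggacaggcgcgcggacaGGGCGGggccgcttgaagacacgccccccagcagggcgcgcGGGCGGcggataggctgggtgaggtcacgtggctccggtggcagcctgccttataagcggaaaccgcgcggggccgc
In the windows of 250 bases before the RefSeq start, TCACNCCAC was found in Hmgcs1 alone among the 4, as TCACCCCAC at positions -137 to -129 from the start. The same letters were found in 1.05% of 32851 promoters in the table. The shorter core CACNCCA, which lies within TCACNCCAC, was found in Hmgcs1 and Insig1 and in 15.6% of all promoters. CCAAT was found for all 4 genes, for Dhcr7 only in the window of another start site that is not printed, and in 33.8% of all promoters. GGGCGG was likewise found in all 4 and in 32.7% of all promoters. Hmgcs1 thus held all the motifs searched, and Lss held CCAAT and GGGCGG only. Among 42 other genes of the pathway with a promoter window, TCACNCCAC was found in 1, Stard3, while CCAAT was found in 28 and GGGCGG in 28. These counts, like those of the 4 genes, take a gene as holding a motif if any of its windows does. The shares of all promoters count each window singly, so counts by gene are not directly comparable with them. These are matches of letters, and binding was not measured.

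The libraries stood apart in several ways that touch the values below. Total counts were 34739679 to 37629264 in the P60 libraries and 13760765 to 16808499 in C57, and the 7 genes had 59 to 7765 counts per library. Levels are given as CPM, the usual depth-scaled count, after TMM scaling over the 9 libraries. The summed level of 8 rod photoreceptor markers was 367 to 8298 CPM in Yap CKO, 1433 to 7876 CPM in control and 41264 to 47080 CPM in C57. The sum of 6 Müller markers was 2338 to 3249 CPM in Yap CKO, 2962 to 3190.2 CPM in control and 5478 to 5767 CPM in C57. Its members did not move together against C57: 4 were lower and 2, Sox9 and Vim, were higher, Vim by 8.3-fold in Yap CKO against C57 and 8.82-fold in control against C57. The sum of 4 markers of reactive glia was 1767 to 2180.0 CPM in Yap CKO and 1246 to 1524 CPM in control. In C57 it was 63.1 to 107 CPM, with no overlap between the groups. All 4 were called higher against C57 and none between the P60 groups. Between the P60 groups the 4 did not move together: 3 lay higher in Yap CKO, and Cd44 lay lower (log2 -0.57), without overlap. The sum of 5 pigment epithelium markers was 45.6 to 162 CPM in Yap CKO, 96.9 to 107 CPM in control and 207 to 219.7 CPM in C57. Here too the members were mixed: Best1 was called higher against C57 in both P60 groups. Of the 5, 4 were called lower in control against C57 and 2 in Yap CKO against C57. Yap CKO 3 had the lowest rod sum, 367 CPM, and a sum of 6 lens markers of 899 CPM, against at most 18.8 CPM in any other library. Y-linked transcripts summed to 118 CPM in Yap CKO 3 and 134 to 135 CPM in the controls, and were at or near 0 in Yap CKO 1 and 2. In C57 they were at 0 in 2 libraries and at 158 CPM in C57 2, so the mix of sexes differs between the groups. In such bulk samples, fewer cells of a type and less RNA per cell cannot be told apart. The sum of 6 microglia markers was 54.3 to 85.0 CPM in Yap CKO, 56.2 to 65.5 CPM in control and 51.3 to 71.7 CPM in C57. Its members were mixed against C57. Tyrobp was called higher and Csf1r lower in both P60 groups, and C1qb was called higher in Yap CKO alone. The sum of 5 markers of oligodendrocytes, another source of cholesterol enzymes, was 31.8 to 34.2 CPM in Yap CKO, 37.2 to 38.2 CPM in control and 32.7 to 37.0 CPM in C57, with Mog at 0 in every library.

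Yap1, the targeted gene, checks the labels. It had 15.3, 21.5 and 24.3 CPM in Yap CKO, 67.4, 61.0 and 57.6 CPM in control, and 23.4, 25.1 and 30.4 CPM in C57. Every Yap CKO library lay below every control library, and Yap1 fell by 1.60 on the log2 scale (SE 0.166, adjusted p = 0.0327 by edgeR's quasi-likelihood test with Benjamini-Hochberg adjustment, as are all adjusted p-values here unless another tool is named). The call was lost without Yap CKO 2 (adjusted p = 0.167), without control 1 (0.111) and without control 2 (0.106).

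The first question was whether Müller-directed Yap deletion goes with a different level of the cholesterol genes at P60. None of the 7 genes passed the adjusted threshold of 0.05 between Yap CKO and control retinas, where 33 of 16539 genes tested did (0.2% either way, 0.0181% higher and 0.181% lower in Yap CKO). At an unadjusted p under 0.05 there was 1 of 7, Hmgcs1, which was lower, beside 17.8% of all genes (9.25% lower). The groups did not overlap for Hmgcs1 and Lss, both lower in Yap CKO, and 25.1% of all genes tested did not overlap (13% higher, 12.1% lower). The median log2 difference of the 7 genes was -0.04, and that of all genes was 0.01.

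Hmgcs1 (ENSMUSG00000093930, chromosome 13, 119690379 to 119708260, plus strand, GRCm38) encodes the cytosolic HMG-CoA synthase at the head of the mevalonate chain. It had 162, 141 and 142 CPM in Yap CKO retinas and 207, 171 and 185 CPM in control retinas. The highest Yap CKO library lay below the lowest control library. The means were 148 ± 11.9 CPM in Yap CKO and 188 ± 18.5 CPM in control (SD, n = 3 each), a log2 difference of -0.34 (SE 0.0889, 95% interval -0.55 to -0.13, 1.27-fold lower) with an adjusted p of 0.125. By unadjusted p (0.00538) it stood at place 708 of 16539 genes. DESeq2 called it (log2 -0.34, adjusted p = 0.0244), as did edgeR with the rod marker level as a covariate (log2 -0.32, adjusted p = 0.0258), and limma-voom did not. Leaving out 1 library at a time gave differences of -0.41 (without Yap CKO 1) to -0.27 (without control 1), with adjusted p from 0.0759 to 0.372. The value without Yap CKO 3, the library with the lowest rod sum and the lens transcripts, was -0.31 (adjusted p = 0.0759). That fit sets Yap CKO libraries without Y-linked transcripts against controls that all have them.

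Fdps, whose product makes farnesyl diphosphate, lies on chromosome 3 (ENSMUSG00000059743, 89093588 to 89101959, minus strand). It had 14.2, 12.2 and 11.2 CPM in Yap CKO and 14.5, 9.73 and 12.6 CPM in control. The groups overlapped fully within the control range, with a log2 difference of 0.03 (SE 0.157, adjusted p = 0.95). Its sign turned without Yap CKO 1 (-0.06) and without control 2 (-0.11). Several processed pseudogenes are near copies of its transcript, and the listed copies held 0.183% to 4.44% of the summed counts, so Fdps counts are uncertain to the extent that counting split such reads. Gm43738, a protein-coding gene annotated on the same strand over Fdps, shares 929 identical bases with it and had 0 counts in every library, and whether reads shared with it went uncounted was not tested.

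Fdft1 (ENSMUSG00000021273, chromosome 14, 63145150 to 63179578, minus strand), the squalene synthase gene, encodes the enzyme that commits the chain to sterols. It had 104, 94.5 and 87.7 CPM in Yap CKO and 96.2, 85.4 and 89.3 CPM in control, which overlap. The log2 difference was 0.08 (SE 0.0787, adjusted p = 0.651). Fdft1 shares 774 transcript bases with Ctsb on the opposite strand, a far more abundant gene, and whether counting used the strand is not stated, so its level is uncertain.

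Sqle (ENSMUSG00000022351, chromosome 15, 59315077 to 59331192, plus strand) encodes squalene epoxidase, a rate-limiting step of the later chain. It had 101, 89.2 and 98.0 CPM in Yap CKO and 103, 96.6 and 96.6 CPM in control. The groups overlapped, with a log2 difference of -0.04 (SE 0.0655, 95% interval -0.20 to 0.11, adjusted p = 0.791). Lss (ENSMUSG00000033105, chromosome 10, 76531588 to 76557138, plus strand), the lanosterol synthase gene, had 49.0, 48.8 and 47.5 CPM in Yap CKO and 55.6, 50.7 and 52.8 CPM in control. Its Yap CKO libraries lay close to each other and all below the controls, but the log2 difference of -0.13 (SE 0.0599, 1.09-fold lower) did not pass (adjusted p = 0.308). Lss and Hmgcs1 are each overlapped by an antisense gene.

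Dhcr7 (ENSMUSG00000058454, chromosome 7, 143823145 to 143848410, plus strand) encodes the reductase that turns 7-dehydrocholesterol into cholesterol. It had 29.0, 26.4 and 32.0 CPM in Yap CKO and 29.5, 26.7 and 27.9 CPM in control, so the groups overlapped. The log2 difference was 0.06 (SE 0.0864, adjusted p = 0.783), and -0.01 without Yap CKO 3, the highest Dhcr7 library of the P60 retinas. Insig1 (ENSMUSG00000045294, chromosome 5, 28071363 to 28078662, plus strand), which retains Scap in the endoplasmic reticulum, had 101, 84.8 and 78.2 CPM in Yap CKO and 97.3, 89.0 and 95.5 CPM in control. Its control libraries lay inside the wider Yap CKO range. Its log2 difference was -0.09 (SE 0.0966, adjusted p = 0.671), and -0.01 without Yap CKO 3. Over the 7 genes the 95% intervals reached from -0.55 (Hmgcs1) to 0.40 (Fdps), so a difference of up to 1.46-fold lower or 1.32-fold higher in Yap CKO lies within an interval of at least 1 gene.

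**Figure D1:**
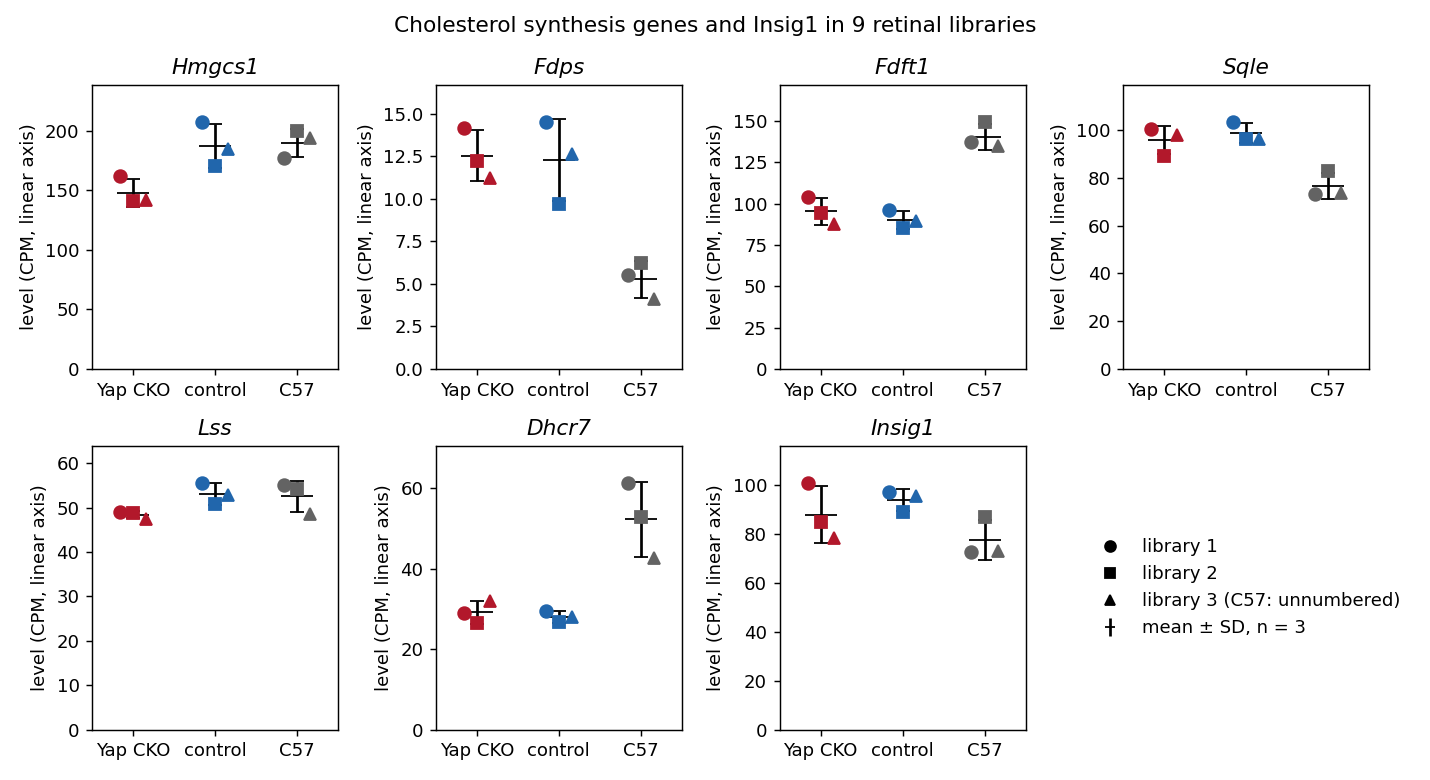
Level of each of the 7 genes in CPM (depth-scaled counts, TMM over 9 libraries, linear axis) in Yap CKO, control and C57 retinas, with a point for each library and the group mean and SD. The P60 groups overlap except for Hmgcs1 and Lss, both lower in Yap CKO, with Hmgcs1 at 148 ± 11.9 CPM in Yap CKO and 188 ± 18.5 CPM in control. For Fdps, Fdft1, Dhcr7 and Sqle, neither P60 group overlaps C57.

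The second question was how the genes in P60 retinas compared with those of the younger wild type. Between Yap CKO and C57, Fdps was higher and Hmgcs1, Fdft1 and Dhcr7 were lower. These 4 calls of 7 stand beside 40.5% of the 15840 genes tested (20.3% higher, 20.2% lower). Between control and C57, Fdps and Sqle were higher and Fdft1 and Dhcr7 were lower, again 4 calls of 7, beside 45.5% of 15820 genes (23.1% higher, 22.4% lower). With so many genes called in all, 4 of 7 is close to the background. The median log2 difference of the 7 genes was -0.16 in Yap CKO against C57 and -0.02 in control against C57, against 0.02 and 0.03 over all genes. Groups did not overlap for 5 of 7 genes in Yap CKO against C57, 2 higher and 3 lower, beside 55.1% of all genes (30.3% higher, 24.8% lower). They did not overlap for 5 of 7 in control against C57, 3 higher and 2 lower, beside 58.9% of all genes (32.3% higher, 26.6% lower). The comparisons share their C57 libraries. The rod, Müller and pigment epithelium sums, lower in every P60 library than in every C57 library, and the reactive glia sum, higher in every P60 library, move with these differences, and their part in the results was not tested.

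Of the 7 genes, Fdps showed the largest difference from C57. It had 11.2 to 14.2 CPM in Yap CKO and 9.73 to 14.5 CPM in control, against 5.53, 6.20 and 4.10 CPM in C57. Every P60 library was above every C57 library. Fdps rose 2.31-fold in Yap CKO against C57 (log2 1.21, SE 0.21, adjusted p = 0.00266) and 2.28-fold in control against C57 (log2 1.19, SE 0.215, adjusted p = 0.00316). The C57 counts behind it were 66, 86 and 59, the lowest of the 7 genes.

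Dhcr7 and Fdft1 went the other way. Dhcr7 had 26.4 to 32.0 CPM in Yap CKO and 26.7 to 29.5 CPM in control, against 61.3, 52.8 and 42.7 CPM in C57, without overlap. It was 1.85-fold lower in Yap CKO than in C57 (log2 -0.89, SE 0.163, adjusted p = 0.00351) and 1.91-fold lower in control than in C57 (log2 -0.93, SE 0.145, adjusted p = 0.00157). Fdft1 had 87.7 to 104 CPM in Yap CKO and 85.4 to 96.2 CPM in control, against 138, 149 and 135 CPM in C57, again without overlap. It was 1.52-fold lower in Yap CKO than in C57 (log2 -0.60, SE 0.125, adjusted p = 0.00601) and 1.59-fold lower in control than in C57 (log2 -0.67, SE 0.101, adjusted p = 0.00136). Under total-count scaling, chosen after seeing the data, Fdft1 was not called in Yap CKO against C57 (log2 -0.24, adjusted p = 0.132). The limit on Fdft1 counts from the bases shared with Ctsb holds for these differences too.

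Sqle had 89.2 to 101 CPM in Yap CKO and 96.6 to 103 CPM in control, against 73.3, 83.0 and 73.7 CPM in C57, below all 6 P60 libraries. It was called in control against C57 (log2 0.33, SE 0.103, 1.26-fold, adjusted p = 0.0307) and not in Yap CKO against C57 (log2 0.28, SE 0.123, 1.21-fold, adjusted p = 0.101), and the control call was lost without any 1 of the 3 control libraries (adjusted p = 0.104, 0.0748 and 0.0962). Hmgcs1 had 141 to 162 CPM in Yap CKO and 171 to 207 CPM in control, against 177, 199.6 and 194 CPM in C57, which lie within the control range and above the Yap CKO range. It fell by 0.40 on the log2 scale in Yap CKO against C57 (SE 0.123, 1.32-fold, adjusted p = 0.0298), and the difference was -0.05 in control against C57 (SE 0.111, adjusted p = 0.720), turning to 0.29 under total-count scaling, where it was called (adjusted p = 0.0416). The Yap CKO call for Hmgcs1 was lost without Yap CKO 2 (adjusted p = 0.128), Yap CKO 3 (0.084), C57 2 (0.126) or C57 unnumbered (0.0502), with no count filter (0.0985), and under total-count scaling (log2 -0.04, adjusted p = 0.782).

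Lss and Insig1 were not called against C57 with TMM scaling. Lss had 47.5 to 49.0 CPM in Yap CKO and 50.7 to 55.6 CPM in control, against 55.1, 54.1 and 48.4 CPM in C57, with log2 differences of -0.16 in Yap CKO against C57 (SE 0.119, adjusted p = 0.310) and -0.02 in control against C57 (SE 0.104, adjusted p = 0.897), which turned to 0.20 (adjusted p = 0.192, Yap CKO against C57) and 0.33 (adjusted p = 0.0303, a call, control against C57) under total-count scaling. Insig1 had 78.2 to 101 CPM in Yap CKO and 89.0 to 97.3 CPM in control, against 72.7, 87.0 and 73.2 CPM in C57, with log2 differences of 0.14 in Yap CKO against C57 (SE 0.147, adjusted p = 0.482) and 0.24 in control against C57 (SE 0.113, adjusted p = 0.117). The Lss libraries of each P60 group overlapped C57. The Insig1 control libraries all lay above C57, and the Yap CKO libraries did not. Total-count scaling, which moved the median of all genes to 0.38 in each C57 comparison, also called Insig1 higher in both (adjusted p = 0.0199 in Yap CKO against C57 and 0.00302 in control against C57).

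**Figure D2:**
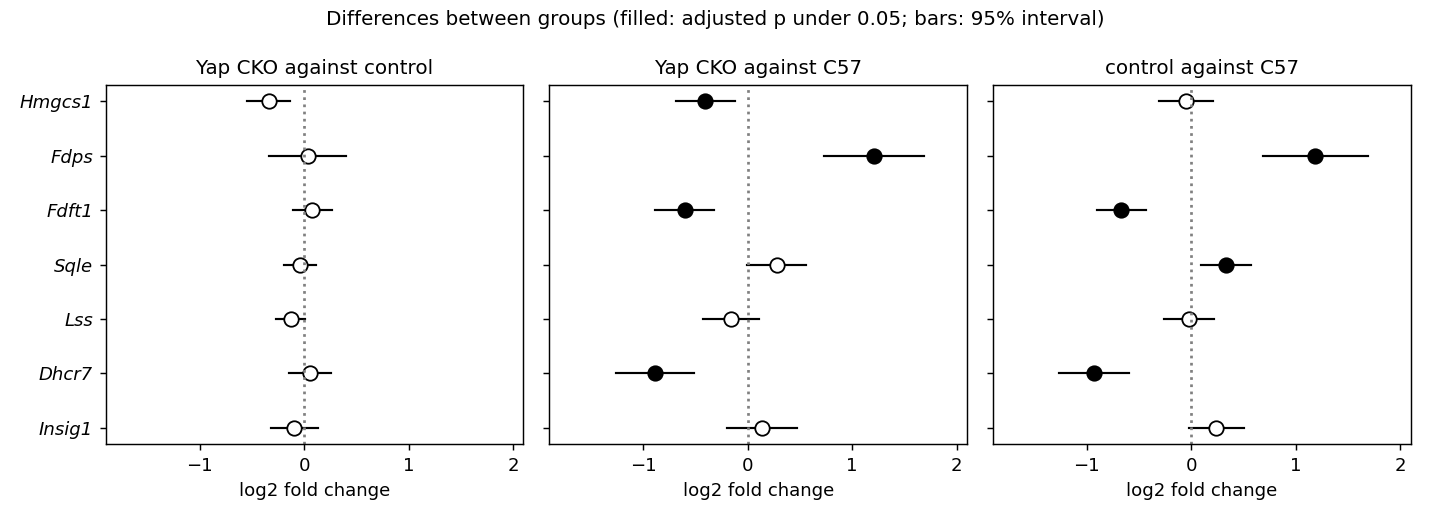
Log2 fold change of each of the 7 genes with its 95% interval in the 3 comparisons, Yap CKO against control, Yap CKO against C57 and control against C57. Fdps lies near 1.2 against C57 in both P60 groups and Dhcr7 near -0.9, while the Yap CKO against control values run from -0.34 to 0.08.

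The genes also differed in level. Per kilobase of the longest coding transcript, Hmgcs1 was highest in each group, at 42.7 ± 3.42 CPM per kb in Yap CKO, 54.1 ± 5.35 in control and 54.9 ± 3.39 in C57 (SD, n = 3 each). In control retinas Sqle (35.8) and Insig1 (34.8 CPM per kb) followed, with overlapping libraries, then Fdft1 (24.4). Lss (11.4), Dhcr7 (9.94) and Fdps (8.89 CPM per kb) came last. The limits on Fdps and Fdft1 counts given above hold for their places here in each group. Dhcr7 and Fdps overlapped in control, and Lss, close above them, did not. In C57 the order differed: Fdft1 (38.01 CPM per kb) came second, Dhcr7 (18.6) lay above Lss (11.3), and Fdps (3.82) was lowest. With the length of all exons of a gene in place of 1 transcript, Insig1 and Fdft1 came before Sqle in each group. Lss, with 10787 exon bases against 4667 in its longest coding transcript, then lay below Dhcr7 in Yap CKO.

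Summed over the 7 genes, levels were 559, 497 and 496 CPM in Yap CKO, 604, 529 and 559 CPM in control, and 583, 632 and 571 CPM in C57. Yap CKO overlapped control in this sum, and control overlapped C57, while every Yap CKO library lay below every C57 library. The mean z-score of the 7 genes over the 6 P60 libraries, on log2(CPM + 1), was 0.54, -0.72 and -0.47 in Yap CKO 1, 2 and 3 and 1.02, -0.54 and 0.16 in control 1, 2 and 3. Libraries numbered 1 were the highest of both groups, and these had the highest rod sums, 8298 CPM in Yap CKO 1 and 7876 CPM in control 1. The part of the rod level in this was not tested.

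Over the same 6 libraries, the 6 genes most like the mean z-score of the 7, among 11367 with a mean of at least 5 CPM, were Nek7 (Pearson r 0.9994), Usp33 (0.9943), Pms1 (0.9926), Hnrnpa2b1 (0.9926), Entpd5 (0.99) and Btbd1 (0.9893). This is a description without a test: the libraries share their scaling and cell make-up, and 166 genes had an r of at least 0.9. Ranked by Spearman's rho, which was 1 for 21 genes, 2 of the 6 names were shared. Of 48 pathway genes considered, Pmvk (0.91) and Srebf1 (0.903) reached an r of 0.9.

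The rest of the pathway was read from 6 lists with 52 genes in all. Between Yap CKO and control none of the 52 passed by edgeR, beside 0.2% of all genes, and 12 had an unadjusted p under 0.05, beside 17.8% of all genes. The medians of the lists lay between -0.13 (uptake and trafficking) and 0.03 (mevalonate enzymes). In each list the gene with the smallest p was Mvk, mevalonate kinase (log2 0.23, adjusted p = 0.151), Sc5d, a late sterol desaturase (-0.27, 0.103), Rnf139, a sterol-sensing ubiquitin ligase (-0.15, 0.239), Stard4, a cholesterol carrier (-0.21, 0.236), Ch25h, cholesterol 25-hydroxylase (-0.90, 0.121), and Scd1, a fatty acid desaturase (-0.24, 0.177). The alternative fits were read only for these 6 named genes, so other genes of the lists may have been called by them. DESeq2, which called 919 genes in all, called Sc5d (adjusted p = 0.0208) and Ch25h (0.00616). The rod covariate, with 1627 calls in all, called Sc5d (0.0262), Ch25h (0.021) and Mvk (0.0486), and Sc5d was also called without Yap CKO 3 (0.0438). Sc5d had 47.0, 43.4 and 44.4 CPM in Yap CKO against 55.9, 54.0 and 52.4 CPM in control, without overlap.

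Against C57 the enzymes of the mevalonate list that passed were lower. The list leaves out Hmgcs1 and Fdps, which were described above. Fdps passed in the other direction, with log2 differences of 1.21 in Yap CKO against C57 and 1.19 in control against C57. With TMM scaling, Hmgcs1 passed in Yap CKO against C57 alone, and was lower (log2 -0.40). Of the 6 enzymes listed, 2 were called lower and 0 higher in each comparison, beside the shares of all genes given above. Acat2, which joins acetyl-CoA units, had 15.3, 14.7 and 15.6 CPM in Yap CKO and 14.5, 13.6 and 12.5 CPM in control, against 26.7, 31.6 and 22.4 CPM in C57. All C57 libraries were above all P60 libraries, with log2 differences of -0.87 in Yap CKO against C57 (adjusted p = 0.00349) and -1.02 in control against C57 (0.00131). Idi1, the isopentenyl diphosphate isomerase, differed by -1.14 (adjusted p = 0.005) in Yap CKO against C57 and -0.67 (0.011) in control against C57. The list's median was -0.11 in Yap CKO against C57 and -0.12 in control against C57, against 0.02 and 0.03 over all genes.

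Of the 8 sterol enzymes after squalene, 1 was higher, 1 lower and 6 not called in Yap CKO against C57, where 40.5% of all genes were called. In control against C57, 2 were higher, 1 lower and 5 not called, where 45.5% of all genes were called. Msmo1, a methylsterol oxidase, had 131, 116 and 125 CPM in Yap CKO and 128, 135 and 126 CPM in control, against 60.8, 76.4 and 72.3 CPM in C57. It rose by 0.78 on the log2 scale in Yap CKO against C57 (adjusted p = 0.0026) and by 0.86 in control against C57 (adjusted p = 0.000893), with no overlap. Nsdhl, which acts in the same demethylation, was lower, with log2 differences of -0.61 in Yap CKO against C57 (adjusted p = 0.00598) and -0.73 in control against C57 (0.00155). Sc5d was higher in control than in C57 (log2 0.60, adjusted p = 0.00769). The list's median was 0.07 in Yap CKO against C57 and 0.11 in control against C57.

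**Figure D3:**
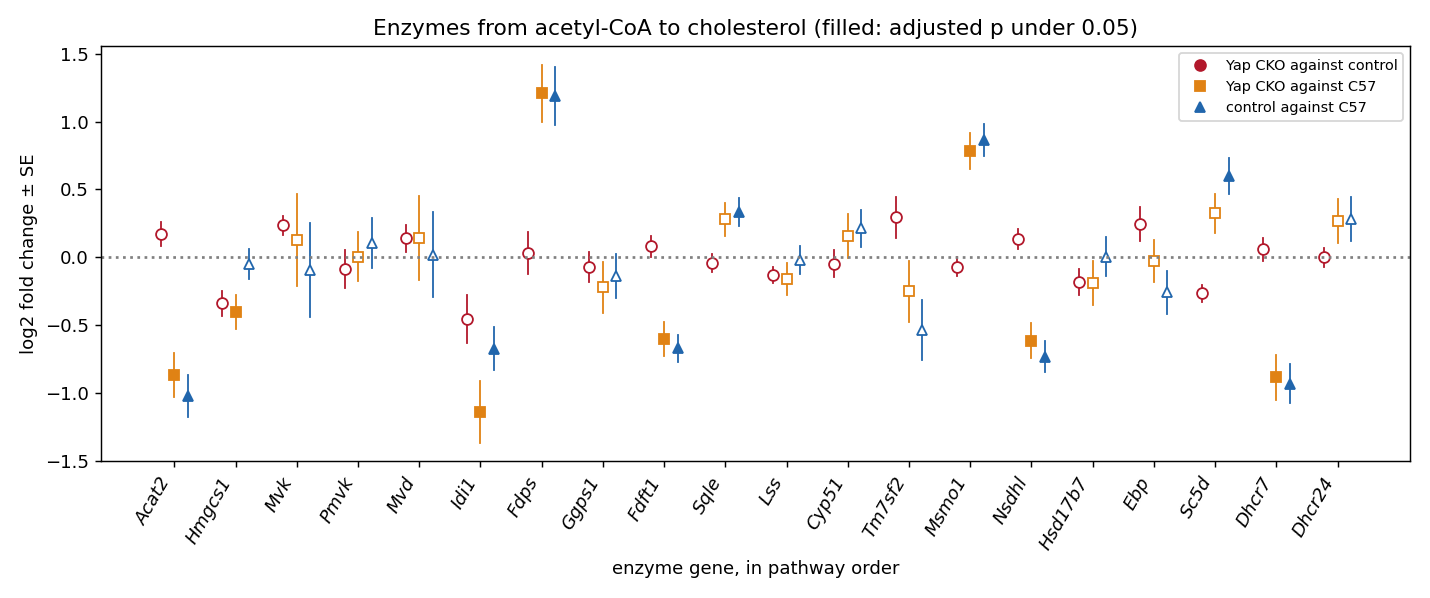
Log2 fold changes of the pathway enzymes, placed in the order of their steps from acetyl-CoA to cholesterol, in the 3 comparisons, with bars of 1 SE and filled symbols where the adjusted p was under 0.05. Neighbouring steps differ in direction against C57, as Msmo1 (0.86 in control against C57) and Nsdhl (-0.73) show.

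None of the 8 SREBP control genes was called by edgeR in any of the 3 comparisons (2 had an unadjusted p under 0.05 in each, beside 17.8% of all genes in Yap CKO against control, 50.2% in Yap CKO against C57 and 53.6% in control against C57). Their median was -0.20 in Yap CKO against C57 and -0.04 in control against C57. Srebf2, the SREBP most tied to sterol genes, had 222, 204 and 233 CPM in Yap CKO, 256, 223 and 244 CPM in control, and 237, 156 and 140.0 CPM in C57. Its C57 libraries were widely spread and overlapped both P60 groups. Scap, the escort of the SREBP proteins, had 95.4, 84.7 and 89.5 CPM in Yap CKO, 96.6, 82.1 and 88.5 CPM in control, and 156, 110.5 and 93.8 CPM in C57. These 2 genes were named after their values were seen.

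Of 10 uptake and trafficking genes, 1 was higher and 2 lower in Yap CKO against C57 (40.5% of all genes called), and 2 were higher and 2 lower in control against C57 (45.5% of all genes called). Neither count is above the share of all genes. Vldlr, a lipoprotein receptor, had 131, 124 and 87.7 CPM in Yap CKO and 138, 116 and 122 CPM in control, against 371, 463 and 591 CPM in C57. It fell by 2.1 on the log2 scale in Yap CKO against C57 (adjusted p = 0.000255) and by 1.96 in control against C57 (0.000159). Scarb1, the receptor for high-density lipoprotein, was lower, with log2 differences of -1.55 in Yap CKO against C57 (adjusted p = 0.00167) and -1.64 in control against C57 (0.00064). Lrp1, a large endocytic receptor, was higher, with log2 differences of 0.59 in Yap CKO against C57 (adjusted p = 0.0298) and 0.77 in control against C57 (0.0114). The Lrp1 call in Yap CKO against C57 was lost when any of 5 single libraries was left out (adjusted p 0.0518 to 0.109). The list's median was -0.06 in Yap CKO against C57 and 0.15 in control against C57.

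Among 10 genes of storage, efflux and hydroxylation, Ch25h stood out. Its counts were 206, 243 and 168 in Yap CKO and 486, 306 and 360 in control, against 0, 1 and 1 in C57. Nearly all of its signal was in the P60 retinas. Pooled over libraries and scaled by depth, the ratio was 106 in Yap CKO against C57 (95% interval 29.1 to 875) and 196 in control against C57 (54.2 to 1620), exact intervals that cover counting error only. The authors' deposited table lists Ch25h too, with log2 values of 6.58 in Yap CKO against C57, 7.47 in control against C57 and -0.89 in Yap CKO against control (adjusted p = 0.0591), and none of the 7 genes is among its 305 genes. The title of that table names Yap CKO against control and cutoffs of p, fold change and expression level. Genes that miss any of these cutoffs would be left out of it. Cyp27a1, a sterol 27-hydroxylase, was lower, with log2 differences of -2.04 in Yap CKO against C57 (adjusted p = 0.000549) and -1.58 in control against C57 (0.00064). Soat1, which esterifies cholesterol, was higher in control than in C57 (log2 0.92, adjusted p = 0.0052). In Yap CKO against C57 it had the same sign without a call (log2 0.56, adjusted p = 0.0648). Abcg1, an efflux transporter, was lower in both, with log2 differences of -0.72 in Yap CKO against C57 (adjusted p = 0.0101) and -0.80 in control against C57 (0.00472). In all, 1 gene was higher and 2 lower in Yap CKO against C57 (median 0.32; 40.5% of all genes called), and 3 were higher and 2 lower in control against C57 (median 0.27; 45.5% of all genes called), counts near or below the background.

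Of 10 fatty acid synthesis genes, the SREBP targets of the neighbouring pathway, 4 were lower in each comparison with C57, with 0 higher in Yap CKO against C57 and 1 higher in control against C57. Of all genes, 40.5% were called in Yap CKO against C57 (20.3% higher, 20.2% lower). In control against C57, 45.5% were called (23.1% higher, 22.4% lower). The list's calls in either direction are near these shares, but they lean to the lower side, where the share of all genes is smaller. The lean was not tested. Me1, malic enzyme, had 86.1, 64.0 and 48.1 CPM in Yap CKO and 80.4, 59.2 and 68.7 CPM in control, against 169.5, 223 and 216 CPM in C57. The groups were far apart, with log2 differences of -1.66 in Yap CKO against C57 (adjusted p = 0.000784) and -1.58 in control against C57 (0.00022). Acaca, acetyl-CoA carboxylase, differed by -1.23 in both (adjusted p = 0.000778 and 0.0012), and Acss2, acetyl-CoA synthetase, by -0.78 in Yap CKO against C57 (0.00303) and -0.83 in control against C57 (0.000662). The list's median was -0.25 in Yap CKO against C57 and -0.20 in control against C57.

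**Figure D4:**
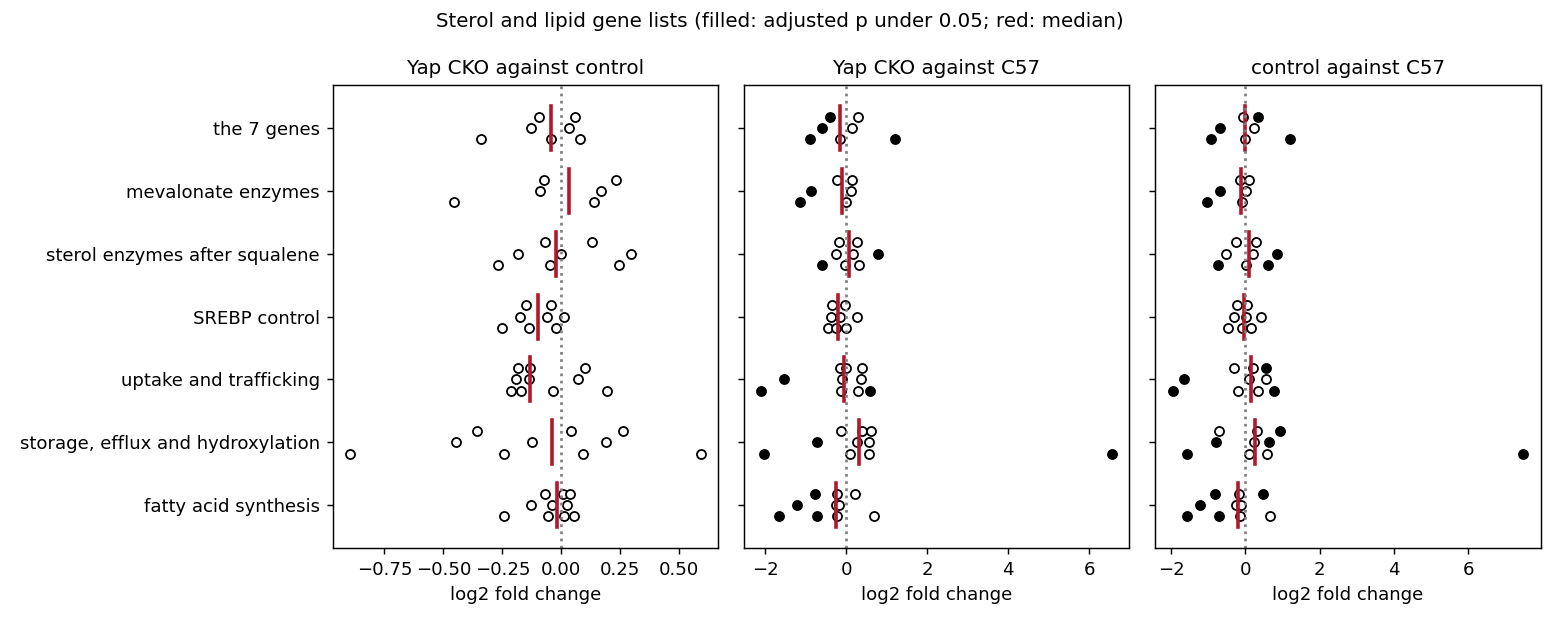
Log2 fold changes of the genes of the 6 pathway lists and of the 7 genes in each comparison, 1 point per gene, with the median of each list and an x axis of its own for each comparison. Points of Yap CKO against control gather near 0, and those against C57 spread to both sides.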

How the data were processed

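Bulk RNA sequencing libraries of 9 retinas were analysed. Per the submitters' processing notes, the authors used HISAT2 2.1.0, featureCounts and edgeR with GRCm38; the annotation and the strand setting are not stated there. The deposited count table holds whole-number read counts per Ensembl gene, not normalized, and 47224 of 47729 identifiers matched a symbol and GENCODE M21. The authors' deposited comparison table gives log2 fold changes and adjusted p-values for 305 genes, per the file headers; its 9 columns of per-library values were not used. One C57 column has a number that no description shares and is called C57 unnumbered.

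From the counts, each comparison was fitted on its own 6 libraries with edgeR 4.0.16 (R 4.3.3): filterByExpr (minimum count 10, total 15), TMM scaling, robust quasi-likelihood F-tests and Benjamini-Hochberg adjustment over all genes tested. All 7 members passed the filter in each comparison. Levels in CPM use 1 TMM scaling over 9 libraries. Alternatives were RLE, upper-quartile and total-count scaling, other filters, DESeq2 1.42.0, limma-voom (limma 3.58.1), 1 fit over 9 libraries, bias-adjusted deviances, a rod covariate, a replicate block and leaving out each library. Near copies were found with blastn 2.17.0. The tests were tried on simulated data. The members and lists were chosen with earlier results of these data known. Genes named from a list were those with the largest changes among those called against C57 (up to 3) and the smallest p between the P60 groups.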

Additional observations from a re-analysis of the deposited data

How the results depend on the processing

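Of the log2 differences of the 7 genes under the alternatives, 302 kept their direction and their side of the threshold, 10 lost the call, 6 gained it with the same sign and 11 changed sign. Of those 11, Hmgcs1 and Lss in control against C57 under total-count scaling also became called (adjusted p = 0.0416 and 0.0303). The number of the 7 genes called in Yap CKO against control was 0 without any 1 library and with every alternative except DESeq2 and the rod covariate, which called 1 each, Hmgcs1. Against C57, leaving out 1 library gave 3 to 4 of the 7 called in each comparison. Total-count scaling, added after the data were seen, called 7 in control against C57 (5 higher, 2 lower) and 4 in Yap CKO against C57 (3 higher, 1 lower). It also moved the split of all calls to 6864 higher and 1937 lower in control against C57 (3655 and 3547 with TMM) and to 6367 higher and 1594 lower in Yap CKO against C57 (3217 and 3202 with TMM).

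The signs that turned were those of small differences. In Yap CKO against control they were Fdps without Yap CKO 1 (-0.06) and without control 2, and Dhcr7 without Yap CKO 3, where leaving out 1 library gave -0.1094 to 0.1576 for Fdps and -0.01358 to 0.1154 for Dhcr7. In Yap CKO against C57 it was Lss under total-count scaling (0.20). In control against C57 they were Hmgcs1 under total-count scaling (0.29) and without control 2 (-0.1241 to 0.01987 over the libraries left out), and Lss with no count filter (0.02646), under total-count scaling (0.33), and without control 2, C57 1 or C57 2 (-0.07116 to 0.02049 over the libraries left out). Sqle was called in Yap CKO against C57 by 1 fit over 9 libraries (adjusted p = 0.0379) and under total-count scaling (0.00309).

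The number of all genes called in Yap CKO against control, 33, was 15 with RLE scaling, 17 with upper-quartile scaling, 343 with no count filter, 15 with a filter of 1 CPM in 3 libraries, 919 by DESeq2, 16 by limma-voom, 60 in 1 fit over 9 libraries, 15 with bias-adjusted deviances and 1627 with the rod covariate. It ranged from 0 (without control 1 or control 2) to 1473 (without Yap CKO 3), with 3 without Yap CKO 1, 1 without Yap CKO 2 and 53 without control 3. In Yap CKO against C57 the range without 1 library was 3905 (without Yap CKO 2) to 8013, with 3986 without C57 2, and in control against C57 it was 5084 to 9255. The cause was not tested. By Spearman's rho 2 of the 6 most alike genes were shared.

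The replicate numbers do not show pairs: same-numbered Yap CKO and control libraries deviated together with correlations of 0.53, -0.08 and 0.01, and not every library correlated best with its own number. With the number as a replicate block, 45 genes (3 higher, 42 lower) and 0 of the 7 were called, and Yap1 was not called (log2 -1.62, adjusted p = 0.0732). No block was fitted against C57, whose retinas are of another series and age, so a shared number pairs nothing there. Other calls that were lost concerned Idi1 in control against C57 (total-count scaling, without control 2 or C57 2; adjusted p 0.0517 to 0.111), Nsdhl in Yap CKO against C57 (total-count scaling, 0.131), Abcg1 in Yap CKO against C57 (total-count scaling and without Yap CKO 2; 0.101 and 0.0506) and Lrp1 in control against C57 (without C57 2, 0.0545). Genes of the lists that were not named by the rule were not read under the alternatives. With a depth of 59 to 86 counts, Fdps in C57 is the least precise of the 7.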
